A study of Mus musculus with 6 samples.

Results

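Cathepsins are the main proteases of endosomes and lysosomes. The RNA of 9 of them, *Ctsa*, *Ctsb*, *Ctsc*, *Ctsd*, *Ctse*, *Ctsh*, *Ctsl*, *Ctss* and *Ctsz*, was measured in B cells with and without *Hif1a*, the oxygen-sensitive subunit of the transcription factor HIF-1. The members were chosen by gene name with their WT and KO values in these same libraries already known, so their differences between the groups are given as a description. All 9 were found among the 46983 genes of the table. The table was RNA-seq of splenic B cells of mice on a C57BL/6 background, with 3 WT and 3 KO libraries. KO mice carried *Hif1a* f/f with *Mb1-cre*, in which the B cell gene *Cd79a* drives the recombinase. WT mice were littermates with 1 floxed allele plus cre, or with 2 floxed alleles but without cre. Which of these genotypes a WT library had is not given in the labels. For 3 days the cells of both groups were kept with LPS (5 μg/ml) plus 10 ng/ml of TGF-β, of BAFF and of IL-5, a culture that drives switching to IgA, and no group without these agents was included. The age of the mice for these libraries is not given in the sources used here, nor is it stated that the replicates came from separate mice, so the spread between them may be technical.

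Cathepsins are made as inactive precursors, reach the endosome and lysosome by sorting receptors and become active at acid pH. In B cells they break down the antigen taken up by the B cell receptor and trim the invariant chain that guards MHC class II, which prepares both for antigen presentation. The family holds 3 kinds of enzyme here. *Ctsd* and *Ctse* are aspartic endopeptidases, *Ctsa* is a serine carboxypeptidase that also stabilises other lysosomal enzymes, and *Ctsb*, *Ctsc*, *Ctsh*, *Ctsl*, *Ctss* and *Ctsz* are cysteine proteases of the papain type.

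Promoter sequence is shown first, because lysosomal genes often share the E-box CACGTG, the core of the site bound by TFEB and its relatives, and because HIF-1 binds the shorter cores ACGTG and GCGTG. RefSeq windows of the 250 bases before a RefSeq transcription start (GRCm38.p6) matched 6 of the 9 members, in 7 windows. By the gene bounds of GENCODE vM21, the *Ctsl* window and the second *Ctsa* window lay wholly inside the gene, after its outermost start. So did most of the *Ctsd* window, including its E-box at 98 bases. These windows are therefore promoter sequence by the RefSeq start only. *Ctsb*, *Ctse* and *Ctsh* had no entry. The motifs were chosen after the windows had been seen, and both strands were searched. CACGTG was found in 3 of the 7 member windows, each of a different member, against 6.02% of 32851 windows in the table. In *Ctsd* (chr7:142387828-142388077, minus strand) it began 245 and 98 bases before the start. In the second window of *Ctsa* (chr2:164833523-164833772, plus strand) it began 12 bases before the start, and in *Ctsl* (chr13:64370521-64370770, minus strand) 236 bases before it. In *Ctss* (chr3:95526536-95526785, plus strand) a pair of GAAA words with 2 bases between them, the core read by interferon regulatory factors, began 21 bases before the start, and 2.98% of all windows held it. The 4 windows are printed 5′ to 3′ with these motifs in capitals.
Ctsd: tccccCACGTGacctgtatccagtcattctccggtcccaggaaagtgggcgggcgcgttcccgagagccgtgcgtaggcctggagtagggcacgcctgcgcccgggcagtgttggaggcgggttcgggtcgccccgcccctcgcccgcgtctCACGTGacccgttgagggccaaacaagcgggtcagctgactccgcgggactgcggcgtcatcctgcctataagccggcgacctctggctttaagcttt
Ctsa: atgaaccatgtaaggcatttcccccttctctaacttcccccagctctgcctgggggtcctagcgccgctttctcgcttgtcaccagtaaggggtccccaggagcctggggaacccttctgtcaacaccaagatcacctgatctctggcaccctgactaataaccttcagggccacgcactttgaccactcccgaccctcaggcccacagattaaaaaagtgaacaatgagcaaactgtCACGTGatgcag
Ctsl: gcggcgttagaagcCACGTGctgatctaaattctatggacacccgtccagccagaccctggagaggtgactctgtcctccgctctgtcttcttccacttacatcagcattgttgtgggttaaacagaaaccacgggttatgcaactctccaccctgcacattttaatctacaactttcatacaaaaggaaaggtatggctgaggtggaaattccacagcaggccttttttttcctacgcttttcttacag
Ctss: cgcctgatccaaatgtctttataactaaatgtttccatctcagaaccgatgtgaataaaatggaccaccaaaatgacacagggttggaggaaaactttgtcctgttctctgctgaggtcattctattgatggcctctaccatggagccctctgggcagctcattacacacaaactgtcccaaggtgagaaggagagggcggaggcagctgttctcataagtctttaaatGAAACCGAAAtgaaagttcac

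A HIF core was present in 4 of the 6 members with a window, *Ctsa* (in both its windows), *Ctsc*, *Ctsd* and *Ctsl*, and in 38.6% of all windows. CACGTG contains ACGTG on both strands, so each E-box above is also counted as a HIF core. Outside the E-boxes, 1 core began 160 bases before the start of *Ctsd*, 1 began 83 bases before that of *Ctsc*, and 1 lay in each *Ctsa* window, at 148 and 78 bases. *Ctsl* had no core outside its E-box, and *Ctss* and *Ctsz* had none. GGAAGT, the core of ETS factor sites, was also searched. Among the members it was in the second *Ctsa* window and that of *Ctsc*, and 19.7% of all windows held it. These matches describe the letters only and do not show binding.

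The 6 libraries held 25.0 to 37.2 M reads. *Hif1a* itself, the targeted gene, was at 36.5, 49.8 and 45.8 FPKM in WT and 46.5, 45.6 and 52.8 in KO. Its gene-level value did not separate the groups, and since it sums all exons it does not show whether the floxed part was lost. The B cell label was met in every library, with *Ms4a1*, which encodes the surface protein CD20, at 326.5 to 445 FPKM. By the study's methods, follicular B cells were sorted as CD21int CD23+ before culture, a gate that would remove other cells, while the labels name splenic B cells only. Markers of other cells still differed between libraries. The 16 macrophage and monocyte markers summed to 88.8, 197 and 135 FPKM in WT and to between 89.0 and 97.2 in KO. The largest part of the sum in every library was *Adgre1*, whose groups overlapped. It was at 59.8, 91.0 and 81.1 in WT and 67.7, 69.7 and 55.5 in KO, so the sums say little about the other markers. *Lyz2* had the largest change of the markers tested, at 6.17, 58.2 and 26.2 in WT and 0.60, 2.23 and 3.70 in KO. *Fcgr1* was near 0 in both groups, at 0.05, 0.12 and 0 in WT and at 0 in every KO library. Not all markers were lower in KO. *Cd5l* was at 15.1, 5.62 and 7.28 in WT and 16.6, 11.4 and 31.0 in KO, and *Mrc1* at 0.714 to 1.04 and 0.884 to 1.12. The 9 neutrophil markers summed to 42.0 FPKM in WT replicate 1 and to at most 0.528 in the other libraries, and 7 of them were at 0 in every KO library. The 9 dendritic cell markers summed to 17.0 to 18.7 in WT and 12.4 to 13.9 in KO. *Clec9a* and *Clec10a* were above 0 in WT replicate 1 alone. The 6 plasma cell markers reached sums of 1406, 939 and 893 FPKM in WT and 999 to 1732 in KO. Those of the 6 erythroid markers were 3.05, 16.2 and 13.5 in WT and 2.91 to 4.72 in KO. On the first principal component WT replicate 1 (-15.7) lay among the KO libraries (-19.5 to -7.1), away from WT replicates 2 and 3 (26.2 and 25.9). In such bulk RNA, fewer cells of a type and less RNA per cell cannot be told apart.

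The cathepsins spanned a wide range in these B cells. FPKM divides by a length set for each gene, so levels of different genes can be compared only as far as that length is right. Mean FPKM over the 6 libraries was 280.4 for *Ctsh*, an aminopeptidase, 244 for *Ctss*, the main protease of the invariant chain in B cells, 185 for *Ctsc*, which activates granule proteases by removing dipeptides, and 172 for *Ctsz*, a carboxypeptidase. *Ctsa* followed at 97.7, *Ctsd* at 87.8, *Ctse* at 52.1 and *Ctsb*, a broad endopeptidase and dipeptidase, at 27.6. *Ctsl*, an endopeptidase best known in thymic epithelium and macrophages, was lowest at 3.48. The first 4 members lay at or above the 95.0th percentile of the 13312 genes tested, and *Ctsl* at the 25.0th. Some neighbours in this order changed places in single libraries. *Ctsh* was above *Ctss* in 5 of 6 libraries, *Ctsc* above *Ctsz* in 5 and *Ctsa* above *Ctsd* in 4.

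The order at the top depended on the length behind the FPKM. For 69.7% of the tested genes, and 65.3% of those with several transcripts, that length was the mean over all annotated transcripts, within 1 base. Short fragments of a gene then raise its FPKM. Of the members, *Ctsa* (1088 against a mean of 926.1 bases), *Ctsb*, *Ctsc* (1567 against 1569), *Ctsd* and *Ctsl* did not meet this. The length was 982 bases for *Ctsh*, whereas the transcript with the longest coding sequence has 1617 bases. With each gene rescaled to its transcript of that kind, *Ctsh* was at 170.3, below *Ctss* at 244 and *Ctsz* at 171.5. *Ctsc* dropped to 116 and *Ctsa* to 29.2. In a comparison of 1 gene between WT and KO the length enters only through the pseudocount, which matters for low genes such as *Ctsl*.

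**Figure D1:**
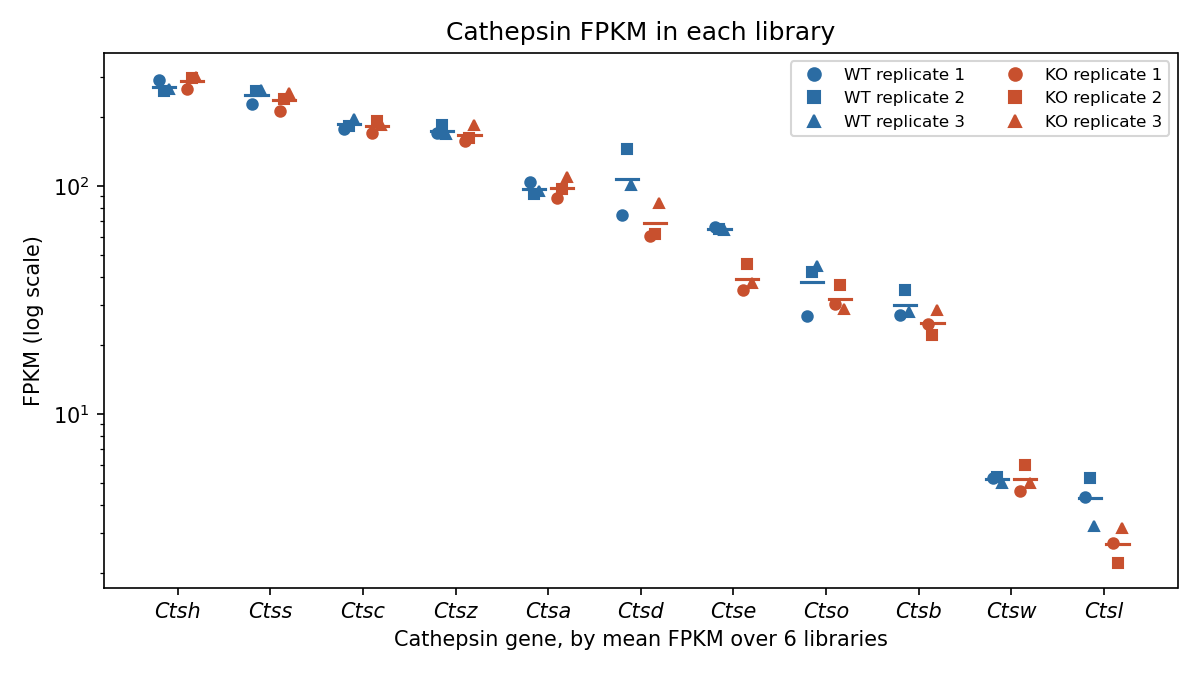
FPKM (log axis) of the 9 cathepsins and of Ctso and Ctsw in each of 3 WT (blue) and 3 KO (red) libraries, with lines at the group means. Ctse values of the groups are apart (63.8 to 66.4 against 34.8 to 45.6 FPKM), while those of Ctsh, Ctss, Ctsc, Ctsz and Ctsa overlap.

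Among the 2 aspartic proteases, *Ctse* was the member with the largest difference between the groups. *Ctse* degrades proteins in endosomes and has a narrow range of tissues that includes lymphoid cells. Its gene (ENSMUSG00000004552) lies at chr1:131638306-131675505 on the plus strand of mm10. It was at 66.4, 64.6 and 63.8 FPKM in WT and at 34.8, 45.6 and 37.6 in KO. Every KO library was below every WT library, and the WT libraries lay close together. The means were 65.0 ± 1.34 in WT and 39.3 ± 5.58 in KO (SD, n = 3 each), and KO was at 60.5% of WT. On the log2(FPKM + 1) scale the change was -0.72 with an SE of 0.10. The values rest on 1614 to 4580 reads per library. The summed dendritic cell markers were also lower in every KO library than in every WT library. Of the 5 tested, only *Siglech* had groups that did not overlap. The part of dendritic cell RNA in the *Ctse* difference was not tested.

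*Ctsd* (ENSMUSG00000007891, chr7:142375911-142388038, minus strand), the main aspartic protease of lysosomes, was at 74.9, 145.0 and 100.7 FPKM in WT and at 60.1, 61.9 and 84.2 in KO. Here WT replicate 1 lay inside the KO range, and WT replicate 2 was far above all others. The means were 107 ± 35.5 and 68.7 ± 13.4 (SD, n = 3 each), and the log2 change was -0.59 with an SE of 0.24. Without WT replicate 2 the change was -0.35, and without WT replicate 1 it was -0.82. In GENCODE vM21 the gene *Gm49369* overlaps 808 exonic bases of *Ctsd* (34.4%) on the same strand. It has no value among the FPKM data. For *Ctsd* the order of the WT libraries was that of *Lyz2*, lowest in replicate 1 and highest in replicate 2. The WT values of *Ctse* lay too close together for an order to be read from them (66.4, 64.6 and 63.8 FPKM). In WT replicate 1, *Lyz2* and *Ctse* were above every KO library, and *Ctsd* was not. Of the 16 macrophage markers 6 were above every KO library there, but apart from *Lyz2* these reached at most 0.275 FPKM. *Marco* (0.164 against 0.313 to 0.634 in KO) and *Cd14* (0.017 against 0.051 to 0.192) were below every KO library. The part of macrophage RNA in the differences of *Ctsd* and *Ctse* was not tested.

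Both aspartic proteases together made up 12.3, 17.0 and 13.9% of the summed FPKM of the 9 members in WT and 9.31, 9.56 and 10.2% in KO. The ratio of *Ctsd* to *Ctse* ran from 1.13 to 2.25 in WT and from 1.36 to 2.24 in KO, so the groups overlapped in the balance of these enzymes.

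**Figure D2:**
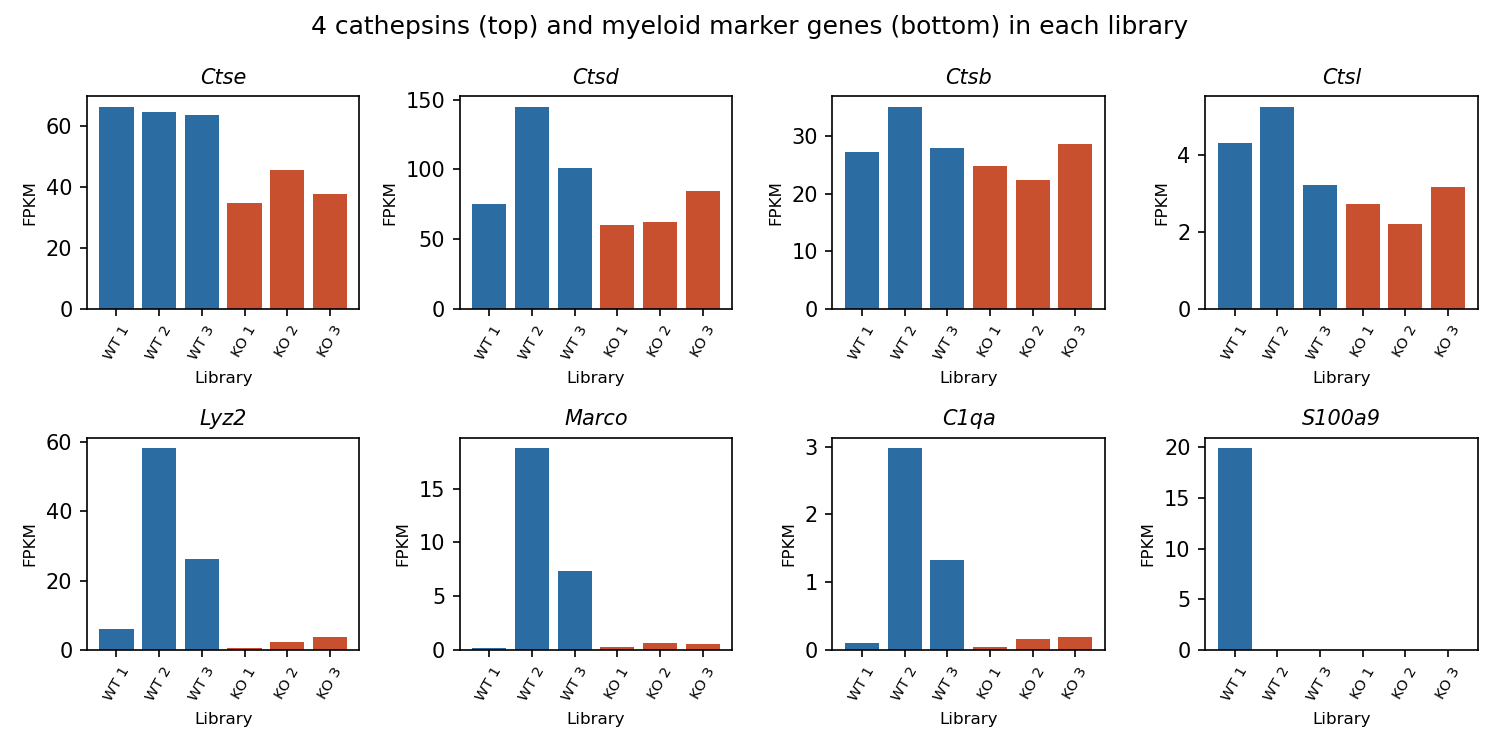
FPKM of Ctse, Ctsd, Ctsb and Ctsl (top row) and of the macrophage markers Lyz2, Marco and C1qa and the neutrophil marker S100a9 (bottom row) in the 3 WT (blue) and 3 KO (red) libraries. Ctsd, Ctsb, Ctsl, Lyz2, Marco and C1qa are highest in WT replicate 2. Ctse is even among the WT libraries (63.8 to 66.4), and S100a9 is above 0 in WT replicate 1 alone.

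Of the 6 cysteine proteases among the members, *Ctsl* and *Ctsb* were the ones with lower KO means beyond their SE. *Ctsl* (ENSMUSG00000021477, chr13:64359337-64370890, minus strand) was at 4.31, 5.26 and 3.22 FPKM in WT and at 2.72, 2.22 and 3.16 in KO. All KO libraries were below all WT libraries, but WT replicate 3 and KO replicate 3 nearly met. The log2 change was -0.50 with an SE of 0.17, from only 134 to 321 reads per library. It was -0.63 with a pseudocount of 0.1 and -0.67 with voom on the recovered reads. An antisense gene and a pseudogene of GENCODE vM21 overlap its exons, but neither has a value among the FPKM data. Whether reads were counted by strand is not given in the sources used here.

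*Ctsb* (ENSMUSG00000021939, chr14:63122462-63145923, plus strand) was at 27.2, 35.1 and 27.9 FPKM in WT and at 24.7, 22.3 and 28.5 in KO. The groups overlapped, and WT replicate 2 was again the highest. The log2 change was -0.24 with an SE of 0.13, and it was -0.13 without WT replicate 2. *Ctsb* shares 774 exonic bases with *Fdft1* on the opposite strand, a gene at 19.0 ± 0.412 FPKM in WT and 20.6 ± 1.78 in KO (SD, n = 3 each). As for *Ctsd*, the part of macrophage RNA in these 2 members was not tested.

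The 4 most abundant cysteine proteases differed little between the groups. *Ctss* was at 229.9, 261 and 265 FPKM in WT and 213, 242 and 257 in KO, with a log2 change of -0.09 and an SE of 0.09. *Ctsh* was at 291, 260.4 and 266 in WT and 267, 297 and 299.8 in KO, with a change of 0.08 and an SE of 0.08. *Ctsc* (186 ± 9.56 against 183 ± 11.2) and *Ctsz* (175 ± 8.41 against 168 ± 14.2; SD, n = 3 each) had changes of -0.02 and -0.06. In all 4 the groups overlapped. Summed, they reached 871 to 896 FPKM in WT and 809 to 927 in KO. The serine carboxypeptidase *Ctsa* was likewise at 97.1 ± 6.52 in WT and 98.3 ± 10.5 in KO (SD, n = 3 each), a change of 0.01 with an SE of 0.09.

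**Figure D3:**
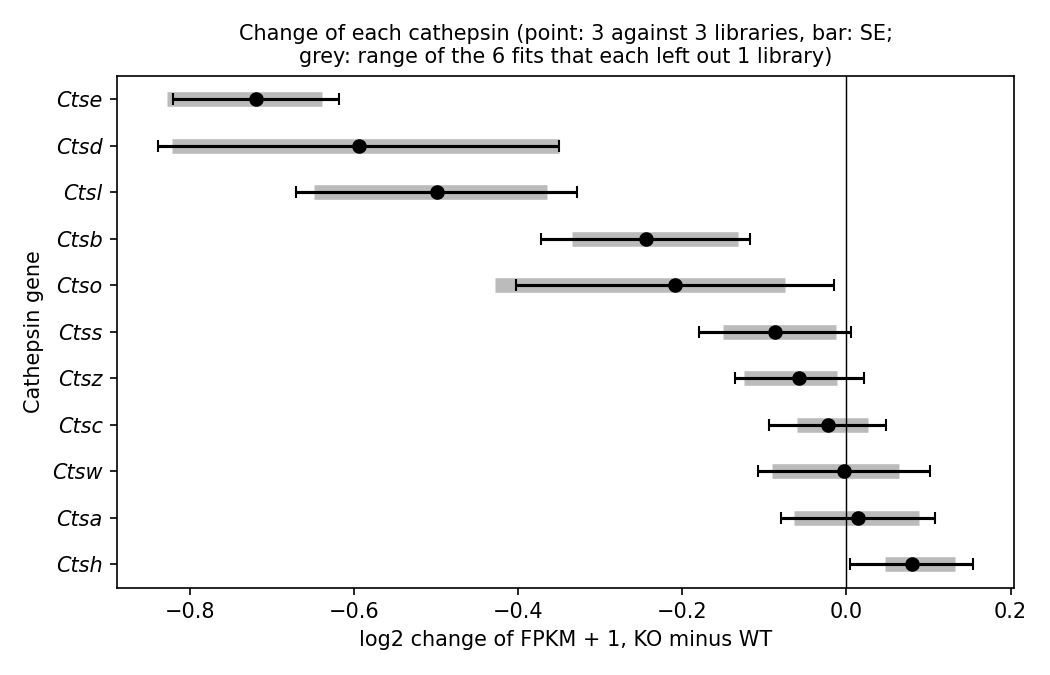
Change of each cathepsin, KO minus WT, in log2(FPKM + 1). Points are the fit of all 6 libraries with the SE as a bar, and grey bands span the 6 fits that each left out 1 library. Ctse runs from -0.83 to -0.64 and Ctsd from -0.82 to -0.35, while the bands of Ctsa, Ctsc and Ctsw cross 0.

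With all 6 libraries, 0 of the 9 members passed an adjusted p of 0.05 in limma, and neither did any other of the 13312 genes tested (0%). The smallest adjusted p was 0.321, and 929 genes (6.98%) had an unadjusted p under 0.05. The KO mean was lower in 7 of 9 members, against 57.9% of all genes, with a median log2 change of -0.09 against -0.03. KO values were all below WT values in 2 of 9 members, *Ctse* and *Ctsl*, against 6.03% of all genes. In no member were they all above, and groups failed to overlap in either direction in 10.1% of genes. WT replicate 1 decided the calls. Without it, 1251 genes (9.40%) passed, 5.75% as lower in KO, and *Ctse* was the 1 member among them (adjusted p = 0.0213, limma, log2 change -0.70). *Ctsd*, at -0.82, did not pass there.

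Of the other 14 cathepsins listed, 2 were tested. *Ctso*, a cysteine protease, was at 27.0, 41.8 and 44.8 FPKM in WT and 30.3, 36.9 and 29.0 in KO, a change of -0.21 with an SE of 0.19. The change was -0.43 without WT replicate 1 and -0.075 without WT replicate 3. *Ctsw*, best known in cytotoxic lymphocytes, was at 4.97 to 5.27 in WT and 4.60 to 5.95 in KO. Neither separated the groups. The neutrophil protease gene *Ctsg* was above 0 in WT replicate 1 alone. *Ctsm*, *Ctsr*, *Cts3*, *Cts6*, *Cts7* and *Ctsll3*, most of them known from placenta, were listed at 0 in all 6 libraries.

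Of the 11 inhibitors of cysteine cathepsins listed, 5 were tested, and their levels ranged widely. The log2 change was below 0 in 3 of them and above 0 in 2. *Cst3*, a secreted cystatin, was at 149.6 to 159 FPKM in WT and 133 to 163 in KO, a change of -0.07 with an SE of 0.08. *Cstb*, an inhibitor in the cytosol, was at 97.2, 110.4 and 106 in WT and 82.6, 84.4 and 97.8 in KO. The groups overlapped by 1 library, and the change was -0.25 with an SE of 0.09. *Cst7* reached 4.82, 9.27 and 11.8 in WT and 5.31, 4.10 and 6.21 in KO. *Serpina3g* was at 89.6, 96.2 and 88.2 in WT and 82.5, 131 and 102 in KO, a change of 0.18 with an SE of 0.16. *Ctla2b*, at 1.97 to 2.29 in WT and 2.12 to 2.85 in KO, had a change of 0.18 with an SE of 0.12. Of the 5 inhibitors tested 0 passed with all libraries, and without WT replicate 1 *Cst7* passed as lower.

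Other lysosomal genes were set beside the cathepsins. These were 86 tested genes for peptidases, hydrolases, membrane proteins, proton pump subunits, sorting and transcription regulators. Of them, 46 had a higher and 40 a lower KO mean, 0 passed, and the median change was 0.02. Over all genes, 42.1% had a change above 0 and 57.9% below. Groups did not overlap in 4 of the 86, all lower in KO, against 10.1% of all genes. The peptidases *Napsa*, at 177 to 202 FPKM in WT, and *Lgmn*, which cleaves after asparagine, had changes of 0.05 and 0.24 with SEs of 0.09 and 0.24. *Tfeb*, the regulator of lysosomal genes that binds E-boxes, was at 175, 167 and 169 in WT and 154, 177 and 181 in KO. *M6pr*, a receptor that carries cathepsins to endosomes, was at 74.3, 83.5 and 84.2 in WT and 74.0, 73.9 and 72.4 in KO. It was 1 of the 4 without overlap, with a change of -0.13. The largest change in these lists was that of *Slc11a1*, a metal transporter of macrophage phagosomes, at -1.10 with an SE of 0.48. It was at 0.395, 4.91 and 1.51 FPKM in WT, the library order of *Lyz2*. Without WT replicate 1, 3 of the 86 passed, all lower, namely *Slc11a1*, *Scarb2* and *Atp6v1a*, against 9.40% of all genes.

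The partners of *Ctss* in antigen presentation were listed too. Of 11 MHC class II loading genes, 9 had a log2 change above 0, against 42.1% of all genes, 0 passed, and the groups overlapped in each. The median was 0.07. *Cd74*, the invariant chain that *Ctss* cuts, was at 3035 to 3317 FPKM in WT and 2773 to 3426 in KO. *H2-Ob*, a brake on peptide loading, had the largest change, 0.41 with an SE of 0.16, and was the 1 gene of this list that passed without WT replicate 1.

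**Figure D4:**
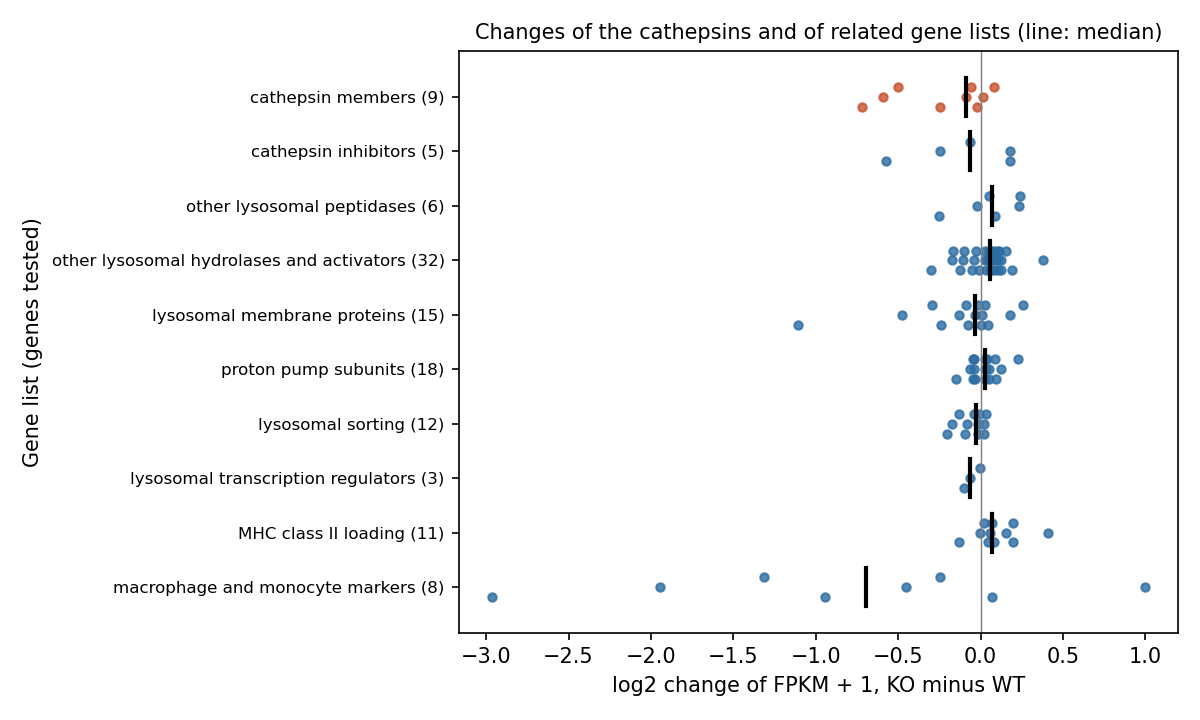
Change of each tested gene, KO minus WT, in log2(FPKM + 1), for the 9 cathepsins (red) and related lists (blue), with the number tested in brackets and a line at each median. The medians of the inhibitors, the lysosomal lists and MHC class II loading lie between -0.07 and 0.07, and that of the macrophage markers is -0.70.

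The genes whose levels over the 6 libraries were most like each member were found by Pearson's r of log2(FPKM + 1), as a description. With only 6 libraries and 13312 genes, the closest gene reached an r of at least 0.986 for every member. A high r is therefore not particular to a pair of genes, and no link between such genes was tested. The genes most like *Ctse* were *Asrgl1* (r = 0.991), *Gpi1* (0.987) and *Mapkapk5* (0.983). *Gpi1*, a glycolytic enzyme, was at 276, 269.6 and 272 FPKM in WT and 249.2, 258 and 253 in KO, so its groups were also apart but by a smaller step, -0.10. For *Ctsd* they were *A430005L14Rik* (0.995), *Dclre1a* (0.994) and *4933424M12Rik* (0.993), all of them highest in WT replicate 2.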

How the data were processed

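The FPKM values of 6 libraries of splenic B cells were used, 3 WT and 3 KO, grouped by their labels. The authors aligned reads to mm10 with TopHat, counted them per gene with HTSeq, and deposited FPKM values, which depend on library depth and on the gene length used. The annotation and the strand setting are not given in the sources used here. Symbols and positions came from GENCODE vM21, which named 46488 of 46983 IDs. Depth was recovered from the steps of the FPKM values, which gave whole reads (within 0.02) for 13312 of 13312 tested genes. Genes whose FPKM averaged 0.5 or more were tested on log2(FPKM + 1) with limma 3.58.1 in R 4.3.3, KO minus WT, two-sided, with Benjamini-Hochberg adjustment over all genes. The fit was tested on simulated data. A pseudocount of 1 understates changes of low genes. The members and gene lists were chosen with earlier results of these data known. Named genes were the members, the other cathepsins tested, the genes of each list with the highest means or largest changes, and the 3 genes most like a member. Genes that passed without WT replicate 1, *Ctsg*, the cathepsins at 0, *Fdft1*, *M6pr*, *Ms4a1*, *C1qa*, *Cd14*, *Mrc1*, *Fcgr1*, *Clec9a* and *Clec10a* were named after their values were seen. Alternatives were a pseudocount of 0.1, other filters, median-ratio and quantile scaling, no variance trend, the replicate block, voom on recovered reads, and leaving out each library.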

Additional observations from a re-analysis of the deposited data

How the results depend on the processing

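*Ctse*, *Ctsd*, *Ctsb*, *Ctsl*, *Ctso*, *Ctss*, *Ctsz* and *Ctsh* kept their direction in all alternatives in which they were tested, and *Ctsl* had no value under the filter of 5 FPKM. The change of *Ctse* ran from -0.83 to -0.64, that of *Ctsd* from -0.82 to -0.35 and that of *Ctsl* from -0.67 to -0.36. Small changes turned. *Ctsc* went to 0.012 under median-ratio scaling, which moved the median of all genes by 0.0303, and *Ctsw* to 0.026 under that scaling, 0.040 under quantile normalization and 0.0068 with voom. Leaving out 1 library at a time gave -0.063 to 0.088 for *Ctsa*, -0.060 to 0.026 for *Ctsc* and -0.091 to 0.064 for *Ctsw*. It gave 0 to 1251 genes passing, 0 to 1 members and 0 to 17 genes of the other lists, all highest without WT replicate 1. 1 gene passed without KO replicate 1. The cause was not tested. Same-numbered WT and KO libraries did not deviate together (r = -0.0987, 0.139 and -0.276), so the numbers were not taken to pair them. With the replicate number as a block, 0 genes and 0 members passed. Low read numbers limit *Ctsl*.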
